A study of Homo sapiens with 2 samples.

Results

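The cells described here are the 96 cells with the most vimentin among 956 uninduced Control cells of SK-N-BE(2)-C, an established human neuroblastoma line. They were the 10% of Control cells with the highest VIM level, and are called VIM-high cells; they were thus chosen by their VIM counts. Levels are given in CPM, the counts of a gene divided by the total and multiplied by 1000000. The whole series held 1622 cells. The other 860 Control cells were the comparison, and the question was whether untreated cells hold a mesenchymal-like state. VIM chose the cells, so its own level is given as a description only and VIM was left out of every count, list and score below.

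Neuroblastoma lines are known to hold cells of an adrenergic state, which resembles developing sympathetic neurons and is kept by transcription factors such as PHOX2A, HAND2 and GATA3, and cells of a mesenchymal state, which resembles neural crest and makes matrix, surface and cytoskeletal proteins. Vimentin, the intermediate filament protein of mesenchymal cells, is a common marker of the mesenchymal state. S100A10, the partner of annexin A2 at the cell membrane, and S100A6, another small calcium-binding protein of the S100 family, are read alongside it.

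All cells carried a doxycycline-inducible gene for HRASV12, an active mutant of the small GTPase HRAS, so the Control cells carried it as well. The HRASV12 induced library came from a culture given 100 ng/ml doxycycline over 13 days and held 666 cells with 80359736 counts, or 111582 in the median cell. The Control library came from an untreated culture, also listed at 13 days. It held 956 cells with 95350640 counts, or 85821 in the median cell. The sources used here do not say whether the line was 1 clone. Each group was 1 library, so cells were not replicates and no test was run. Intervals of sums and ratios are 95% intervals for counting error only. Those of shares treat cells as separate draws, and those of list medians run over genes. None of them measures spread between cultures. No cell barcode was shared by the libraries, and the annotation marked all 1622 cells as singlets. VIM-high cells held a median of 83508 counts and 9444 genes, against 85938.5 counts and 9720 genes in other Control cells. Their median mitochondrial percent was 14.4, against 13.0 in other Control cells, and their median MALAT1, a nuclear RNA, was 2587 CPM against 3179 CPM. The part of these differences in the results below was not tested. Both libraries held 1 cell line, so there were no cells that should lack a gene by which to gauge free RNA.

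VIM-high cells had from 539 to 6028 VIM CPM, with a median of 901 CPM. HRASV12 induced cells had from 0 to 15354 CPM, with a median of 1034 CPM. Other Control cells had from 0 to 521 CPM, with a median of 18.4 CPM, and 290 of them (33.7%) had no VIM count. The 96 cells held 68.4% of all VIM counts of the Control library, and the largest single cell held 4.18% of the VIM counts of the 96. At the threshold the last cells inside had 550, 547 and 539 CPM and the first cells outside had 521, 512 and 506 CPM, so the levels ran on without a gap. Set beside induced cells, 36 VIM-high cells (37.5%) lay above the induced median. At or above the lowest VIM-high cell lay 450 induced cells (67.6%). VIM chose the cells, so these shares describe VIM levels only.

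As a further description of VIM in these cells, each count was put at random in 1 of 2 sets, the 10% of cells highest in the first set were chosen, and VIM was read in the second set, which had taken no part in the choice. There the chosen cells stood at 1271 CPM and the other Control cells at 65.1 CPM, a ratio of 19.5 (exact interval 18.7 to 20.4). The lowest chosen cell had 368 CPM in the second set, and 91 of the 96 cells were also VIM-high by all counts. Both sets are counts of the same gene in the same cells, so this describes VIM alone and bears on no wider state.

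**Figure D1:**
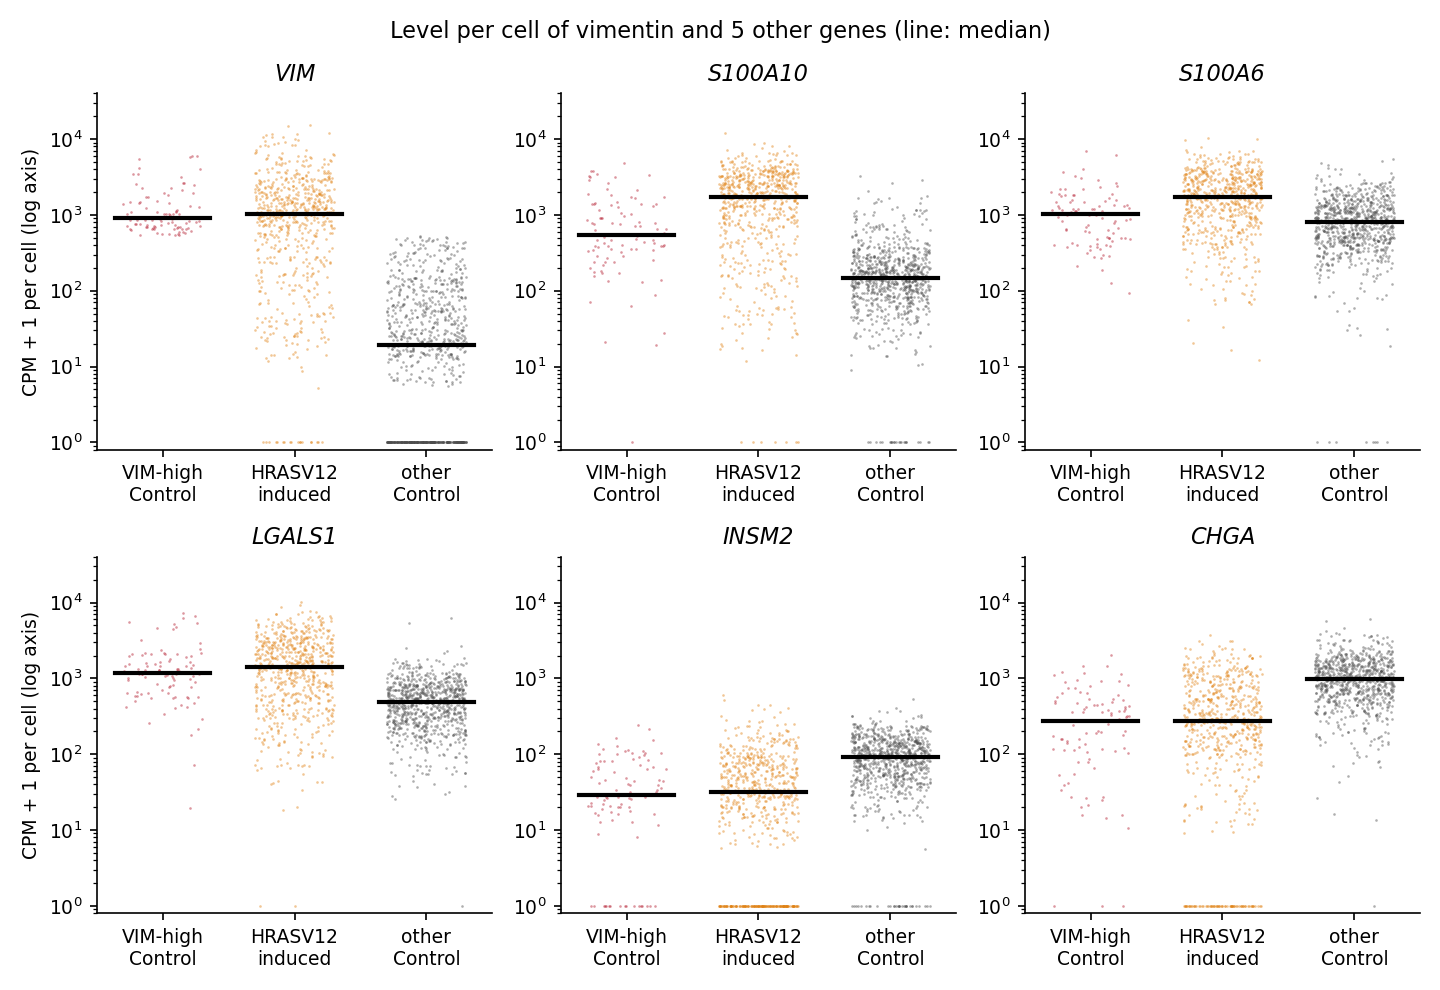
Level per cell of 6 genes in VIM-high Control, HRASV12 induced and other Control cells, in CPM + 1 on a log axis, with 1 point per cell and a black line at the median. VIM separates the first and last columns because it chose the cells. S100A10, LGALS1, INSM2 and CHGA are shifted but overlap, and S100A6 is nearly level.

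Of the other markers, S100A10 was higher in VIM-high cells and S100A6 was nearly level. S100A10 ranged from 0 to 4874 CPM over VIM-high cells with a median of 546 CPM, against 0 to 3243 CPM with a median of 147 CPM in other Control cells. The groups overlapped, with the middle 50% of cells apart: from 315 to 1305 CPM in VIM-high and from 83.6 to 245 CPM in other Control cells. Summed over cells, S100A10 stood at 831 CPM in VIM-high, 2078 CPM in HRASV12 induced and 228 CPM in other Control cells. The ratio of VIM-high over other Control was 3.64 (3.55 to 3.74). S100A6 had a median of 1035 CPM per VIM-high cell and 798 CPM per other Control cell. Its summed level was 1192 CPM in VIM-high, 2298 CPM in induced and 981 CPM in other Control cells, a ratio of 1.21 (1.19 to 1.24) for VIM-high over other Control. Among cells called G1 alone, a choice made after seeing the data, the log2 ratio of S100A6 was -0.06 and the log2 ratio of S100A10 was 1.74. When Control cells were ranked by S100A10 instead, 43 of the top 96 (44.8%) were VIM-high, and by S100A6 it was 16 (16.7%).

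Genes of the mesenchymal surface and cytoskeleton were higher in VIM-high cells as a group. The list had 30 measured genes, of which 18 were higher by 1.5-fold or more and none was lower by that much. Over all 8909 measured genes, those with at least 10 CPM in either set, 423 (4.75%) were higher by 1.5-fold or more and 234 (2.63%) were lower by as much. These sizes are meant wherever genes are counted as higher or lower below. The list's median log2 ratio, with 1 CPM added to both levels, was 0.74 (interval over genes 0.39 to 1.10), against -0.06 over all measured genes. Genes low in both sets were not measured, and a low gene counted as measured only through the set where it was higher. With no such filter 28 of all 44 genes in the table were higher and 1 was lower. Over all 35518 genes with a count, 1023 were then higher and 741 lower.

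LGALS1, the lectin galectin-1, stood at 1414 CPM in VIM-high, 1947 CPM in induced and 562 CPM in other Control cells. Per cell its median was 1188 CPM in VIM-high and 481 CPM in other Control cells, with overlapping ranges. ANXA2, the membrane partner of S100A10, stood at 672 CPM in VIM-high, 1057 CPM in induced and 312 CPM in other Control cells. The actin-binding proteins TAGLN2, TPM1 and TMSB10 were likewise higher in the pooled VIM-high cells. TAGLN2 stood at 648 CPM in VIM-high, 730 CPM in induced and 345 CPM in other Control cells. For TPM1 the levels were 805, 758 and 385 CPM in the same order. TMSB10 reached 2058 CPM in VIM-high, 3498 CPM in induced and 890 CPM in other Control cells. ACTA2, smooth muscle actin, had the highest log2 ratio of the list, 3.81, at 30.5 CPM in VIM-high, 71.2 CPM in induced and 1.24 CPM in other Control cells. That level came from few cells: 3 of the 96 held at least 50% of its counts and 30 had a count at all. IFITM2, an interferon-induced membrane protein, was second at 2.77, with 30.1% of its VIM-high counts in 1 cell, and it has close copies that can share reads. ACTN4, an actin cross-linker, and CNN3, a calponin, were lowest, with log2 ratios of -0.06 and -0.19.

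Matrix genes were higher too. Of 14 measured, 10 were higher and none was lower, with a median log2 ratio of 1.05 (0.39 to 2.96). The other 13 of the 27 genes in the table were not measured. Low genes such as COL1A1 and MGP passed the floor only through VIM-high cells, so the filter favours higher genes in this count and median. MGP, matrix Gla protein, stood at 30.1 CPM in VIM-high and 2.25 CPM in other Control cells. LUM, the proteoglycan lumican, stood at 91.3 CPM in VIM-high, 64.5 CPM in induced and 10.7 CPM in other Control cells. Its median per cell was 59.0 CPM in VIM-high cells and 0 in other Control cells, of which 260 of 860 had a count. SPARC, a collagen-binding protein, stood at 104 CPM in VIM-high, 106 CPM in induced and 34.9 CPM in other Control cells. TIMP1, an inhibitor of matrix proteases, stood at 191, 342 and 87.1 CPM in the same order. COL1A1, a chain of collagen I, stood at 14.3 CPM in VIM-high, 5.65 CPM in induced and 0.929 CPM in other Control cells, but 1 cell held 56.8% of its VIM-high counts. FN1, fibronectin, was at 26.2 CPM in VIM-high, 79.9 CPM in induced and 12.9 CPM in other Control cells, with a median per cell of 9.49 CPM in VIM-high and 6.46 CPM in other Control cells. LAMB1 and COL6A1 were the lowest, with log2 ratios of 0.16 and -0.08.

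Transcription factors of the mesenchymal state were mostly level. Of 17 measured, 5 were higher and none was lower, with a median log2 ratio of 0.04 (-0.19 to 0.61). SOX9, a neural crest and cartilage factor, stood at 12.4 CPM in VIM-high, 11.98 CPM in induced and 3.11 CPM in other Control cells. ZEB2, a repressor of epithelial genes, stood at 42.2, 30.6 and 19.8 CPM in the same order. The others were CREG1, AEBP1 and MAFF. TWIST1, a regulator of epithelial-mesenchymal transition, stood at 156 CPM in VIM-high, 139 CPM in induced and 181 CPM in other Control cells. TEAD1, a partner of YAP, and ID3, an inhibitor of basic helix-loop-helix factors, were lowest, with log2 ratios of -0.27 and -0.46.

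Some defining markers of the mesenchymal state were at or near 0. CD44, a hyaluronan receptor, and PRRX1, a mesenchymal homeobox factor, had no count in VIM-high cells, where a count of 0 allows up to 0.325 CPM. CD44 was at 3.34 CPM in induced and 0.0348 CPM in other Control cells, and PRRX1 at 0.249 and 0.604 CPM. ANXA1, annexin A1, had counts in 1 of 96 VIM-high cells, a pooled 0.976 CPM, and stood at 21.0 CPM in induced cells, with no count in other Control cells. TAGLN, transgelin, stood at 3.15 CPM in VIM-high, 12.7 CPM in induced and 0.0697 CPM in other Control cells. COL1A2, the other chain of collagen I, was at 0.868 CPM in VIM-high, 0.697 CPM in induced and 0.778 CPM in other Control cells. The VIM-high cells thus had higher levels of some mesenchymal genes while others of that list were not detected, and they are not given a cell type name here.

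The difference was spread over many of the 96 cells. With each cell thinned at random to 53000 counts, which kept 80 VIM-high, 562 induced and 686 other Control cells and left out 16, 104 and 174, the 3 mesenchymal lists without VIM were summed per cell. The median was 140 per 10000 counts in VIM-high, 216 in induced and 92.2 in other Control cells. The ranges overlapped, from 74.7 to 367 in VIM-high, 37.4 to 822 in induced and 39.8 to 251 in other Control cells. Of the VIM-high cells, 76 of 80 (95%, Clopper-Pearson interval 87.7 to 98.6) lay above the other Control median and 39 (48.8%, 37.4 to 60.2) above the other Control 95th percentile. Among induced cells 437 of 562 (77.8%, 74.1 to 81.1) lay above that percentile. With S100A10 and S100A6 also left out, it was 44 of 80 VIM-high cells (55%). Only 10 VIM-high cells (12.5%) exceeded the induced median.

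Genes of the adrenergic side were lower in part. Of 21 measured adrenergic transcription factors, 5 were lower and 1 was higher. The list's median log2 ratio was -0.37 (-0.57 to -0.09). INSM2, a neuroendocrine zinc finger factor, stood at 47.8 CPM in VIM-high, 49.4 CPM in induced and 103 CPM in other Control cells. DACH1, ZNF536 and SOX11 were also lower. The core factors were less far apart. PHOX2A stood at 630 CPM in VIM-high, 899 CPM in induced and 709 CPM in other Control cells. HAND2 stood at 191, 172 and 256 CPM and GATA3 at 165, 218 and 214 CPM in the same order. HEY1, a Notch target, was higher, at 84.7 CPM in VIM-high and 63.1 CPM in induced cells, with a ratio of 2.57 (2.37 to 2.78) for VIM-high over other Control. MYCN, the amplified oncogene of this line, stood at 621 CPM in VIM-high, 397 CPM in induced and 465 CPM in other Control cells.

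Catecholamine and chromaffin genes were divided. Of 18 measured, 4 were higher and 3 were lower, and the median log2 ratio was -0.03. CHGA, the secretory granule protein chromogranin A, had a median per cell of 274 CPM in VIM-high and 990 CPM in other Control cells. Its summed level was 411 CPM in VIM-high, 446 CPM in induced and 1068 CPM in other Control cells, a ratio of 0.385 (0.372 to 0.397) for VIM-high over other Control. CHGB, its relative, stood at 201, 364 and 381 CPM in the same order. SLC6A2, the noradrenaline transporter, was the third on the lower side. On the higher side, the neuropeptide NPY stood at 828 CPM in VIM-high, 1339 CPM in induced and 292 CPM in other Control cells, and the granin VGF at 449, 379 and 131 CPM. The peptide precursor CARTPT stood at 91.8 CPM in VIM-high, 0.896 CPM in induced and 40.6 CPM in other Control cells, but 3 cells held at least 50% of its VIM-high counts and 2 cells at least 50% of those in other Control cells. TH, which starts catecholamine synthesis, was the fourth at 12.2, 1.14 and 2.69 CPM, with 20.4% of its VIM-high counts in 1 cell. DBH, which makes noradrenaline, was level at 91.7 CPM in VIM-high and 95.8 CPM in other Control cells. Of 19 measured neuronal genes, 1 was higher and none lower. That gene was STMN4, a stathmin, with a log2 ratio of 1.26 that became -0.82 without the cells of cluster 4 described below. The neuronal list's median was 0.03, beside 0.45 for induced over other Control.

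VIM-high cells were called G1 more often. At equal depth 42 of 80 (52.5%, 41.0 to 63.8) were called G1, against 360 of 562 induced cells (64.1%, 59.9 to 68.0) and 123 of 686 other Control cells (17.9%, 15.1 to 21.0). S phase calls made up 15% of VIM-high, 11.4% of induced and 35.0% of other Control cells, and G2 or M phase calls 32.5%, 24.6% and 47.1%. Without thinning the G1 shares were 52.1% of VIM-high, 61.9% of induced and 20.3% of other Control cells. The phase calls rest on the summed cycle genes: the S phase list had 23 of 38 measured genes lower in VIM-high cells and a median log2 ratio of -0.67 (-0.75 to -0.54), and the G2 and M phase list had 3 of 52 lower and a median of -0.26. DTL, a ubiquitin ligase subunit that limits replication licensing, stood at 27.4 CPM in VIM-high, 26.3 CPM in induced and 61.1 CPM in other Control cells. Seen from the phases, 50 of 225 Control cells called G1 were VIM-high (22.2%, 17.0 to 28.2), as were 14 of 283 called S (4.95%, 2.73 to 8.16) and 32 of 448 called G2 or M (7.14%, 4.94 to 9.93).

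The cycle moved with VIM, so the cells were also chosen as the top 10% within each called phase. Then 0 of 38 S phase genes were lower and the list's median was -0.23. Lower genes over the whole table numbered 96, against 234 without this matching, and higher genes numbered 340, against 423. The mesenchymal surface and cytoskeleton list then had 16 of 30 genes higher and a median of 0.69. With phases matched the log2 ratio of S100A10 was 1.66 and the log2 ratio of CHGA was -1.32. The phases were called from the S phase list itself, so choosing within phases largely fixed in advance that its genes came closer. The part of the cycle in the other differences was not tested.

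HRAS itself was level within Control. It stood at 110 CPM in VIM-high, 161 CPM in induced and 109 CPM in other Control cells, a ratio of 1.01 (0.944 to 1.08) for VIM-high over other Control. Per cell the median was 107 CPM in VIM-high and 102 CPM in other Control cells, and the ranges coincided. These 3' counts cannot tell transcripts of the transgene from those of the native gene. NRAS, a close relative, had a log2 ratio of 0.23. Of 14 measured genes that report MAPK output downstream of RAS, 4 were higher and none lower, with a median of 0.27 (0.04 to 1.34), beside 0.60 for induced over other Control. TNFRSF12A, a receptor of the TNF family, stood at 43.9 CPM in VIM-high, 135 CPM in induced and 8.48 CPM in other Control cells, with 13.3% of its VIM-high counts in 1 cell. PHLDA1, induced by growth factors, stood at 125, 97.1 and 44.1 CPM in the same order. DUSP6 and DUSP5, phosphatases of ERK, were the others. DUSP6 was at 10.9 CPM in VIM-high, 20.6 CPM in induced and 3.72 CPM in other Control cells. EGR1, an immediate-early factor, was the lowest of the list at 127, 74.6 and 148 CPM.

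Genes of hypoxia and glycolysis were higher in VIM-high cells as a group. Of 20 measured, 10 were higher and none lower, with a median log2 ratio of 0.56 (0.33 to 0.98), beside -0.11 for the same genes in induced over other Control. PFKP, a phosphofructokinase, stood at 24.3 CPM in VIM-high, 13.97 CPM in induced and 0.906 CPM in other Control cells. BNIP3, a mitophagy receptor, stood at 283, 182 and 148 CPM, and the glycolytic enzyme PGK1 at 729, 539 and 452 CPM. NDRG1 stood at 29.6, 5.16 and 3.90 CPM in that order, with 16.5% of its VIM-high counts in 1 cell. NDUFA4L2, a mitochondrial protein known as a HIF target, was outside the list and was named after its values were seen. It stood at 124 CPM in VIM-high, 4.70 CPM in induced and 7.84 CPM in other Control cells, with 4 of 96 cells holding at least 50% of the VIM-high counts. SLC2A1, a glucose transporter, had a log2 ratio of 0.05, which ranged from -0.67 without cluster 4 to 0.69 in cells called G1. Abundant members weighed on the list's sum, which was 8416 CPM in VIM-high, 8102 CPM in induced and 6745 CPM in other Control cells. Without cluster 4, a choice made after seeing the data, 3 of 17 measured genes were higher, 1 was lower and the median was 0.13. Over all 8942 measured genes, 419 were then higher and 235 lower. In clusters 1 to 5, described below, the list summed to 6844, 6979, 5429, 10756 and 7180 CPM in VIM-high cells. In the other cells of these clusters it summed to 7159, 6844, 5284, 10825 and 6756 CPM. The part of cluster 4 in the list's difference was not tested.

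**Figure D2:**
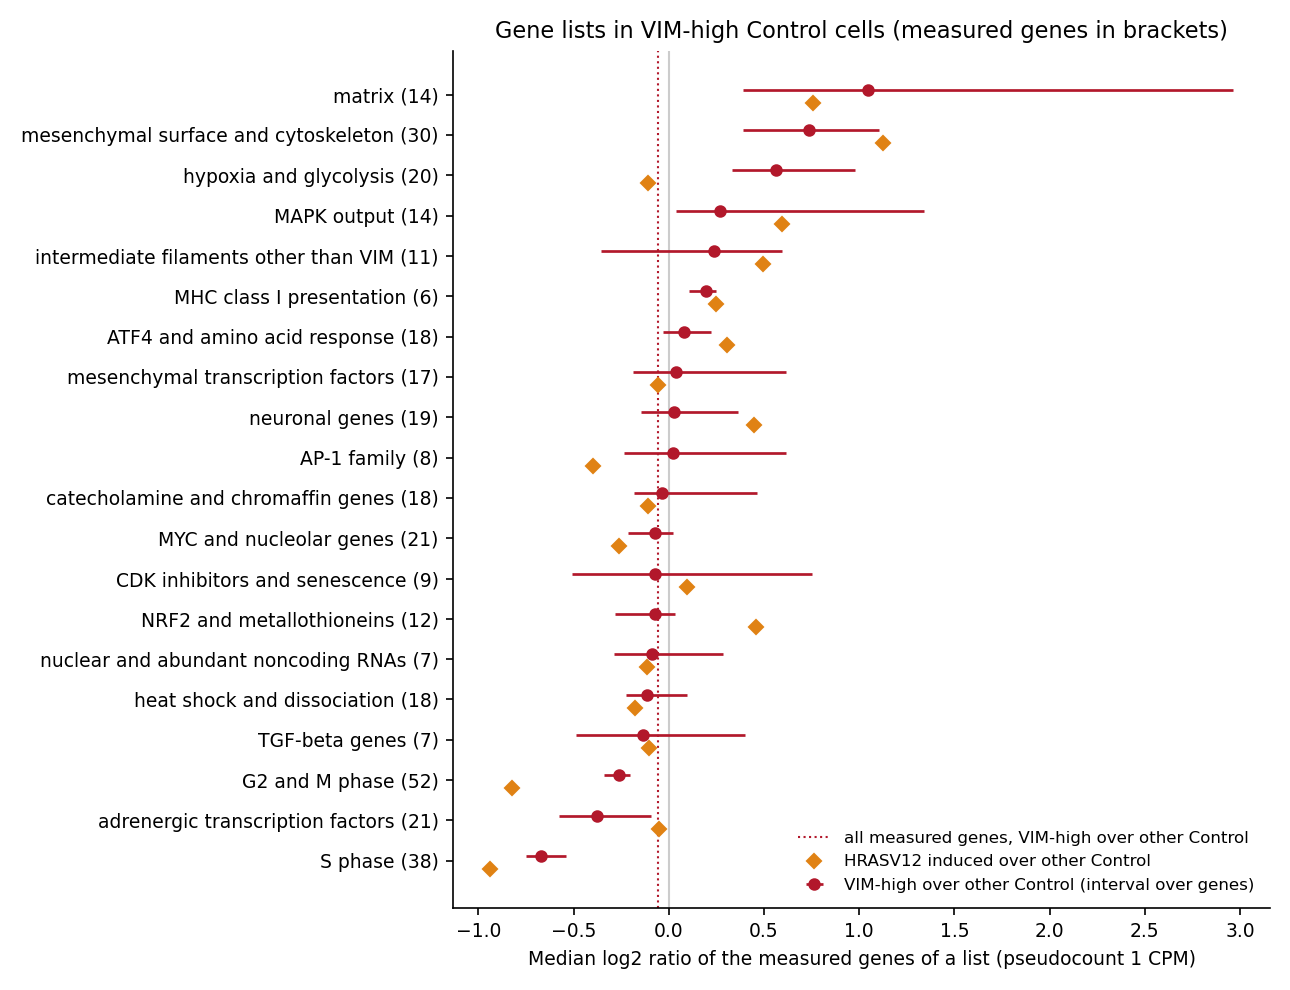
Median log2 ratio of the measured genes of 20 lists, in VIM-high over other Control cells (circles, with intervals over genes) and in HRASV12 induced over other Control cells (diamonds), with a dotted line at -0.06, the median of all measured genes. Matrix, mesenchymal surface and hypoxia lists are farthest to the right for VIM-high cells, at 1.05, 0.74 and 0.56, and the S phase list is farthest to the left at -0.67.

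Both ratios share the other Control cells, so they are given side by side and no agreement between them is measured. The genes measured here reached 10 CPM in VIM-high or other Control cells, so genes high only in induced cells are left out. Which median is the larger therefore depends on this filter. Over all genes in the table, matrix genes summed to 777 CPM in VIM-high, 1005 CPM in induced and 372 CPM in other Control cells. Mesenchymal surface genes had a median of 0.74 in VIM-high and 1.12 in induced cells, matrix genes 1.05 and 0.76, and adrenergic factors -0.37 and -0.05. Intermediate filaments other than VIM had 0.24 and 0.50, with KRT18 and NES the 2 of 11 that were higher in VIM-high cells. NES, the neural stem cell filament nestin, stood at 107 CPM in VIM-high, 99.7 CPM in induced and 70.4 CPM in other Control cells. KRT18, keratin 18, stood at 23.4, 19.2 and 2.68 CPM, with 30.1% of its VIM-high counts in 1 cell. Lists with no measured gene 1.5-fold apart in VIM-high cells were NRF2 and metallothioneins (12 genes), MYC and nucleolar genes (21), MHC class I presentation (6), nuclear and abundant noncoding RNAs (7), TGF-beta genes (7) and YAP and TAZ targets (2). With no filter on low levels, 7 of 13 YAP and TAZ targets were higher and none lower. Of TGF-beta genes 5 of 15 were then higher and 1 lower, and of MHC class I genes 1 of 15 was higher. Over all 35518 genes with a count, 1023 were higher and 741 lower at this setting. The ATF4 list had 1 of 18 higher, TRIB3, and the heat shock list 1 of 18, ZFP36. Of the RAS genes 1 of 4 was higher, RRAS, and of the AP-1 family 1 of 8, MAFF. CDK inhibitors and senescence genes had 2 of 9 higher, IGFBP3 and GADD45A. Of 2 measured epithelial markers, KRT18 was higher and KRT19 was not.

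The 8 genes with the highest ratio of the induced over the Control library were present at lower levels in VIM-high than in induced cells. The choice of these genes nearly fixes that direction, since VIM-high cells are part of Control, so it is a description. ANKRD1, a YAP target, stood at 1.08 CPM in VIM-high, 28.1 CPM in induced and 0.0581 CPM in other Control cells. TM4SF1 stood at 6.83, 31.4 and 0.0464 CPM in the same order, with 42.9% of its VIM-high counts in 1 cell. TSPAN8 stood at 11.2, 43.2 and 1.29 CPM and PRSS23 at 23.9, 85.2 and 5.42 CPM. LRRC17 stood at 6.72, 28.5 and 0.0929 CPM. ACTA2 and TNFRSF12A, given above, were also among the 8.

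Markers of other cell types were read as well. Of 11 endothelial markers EGFL7 and ESAM were measured, both higher in VIM-high cells, and with no filter on low levels 7 of the 11 were higher and none lower. EGFL7, a secreted protein of vessels, stood at 311 CPM in VIM-high, 53.4 CPM in induced and 73.5 CPM in other Control cells, with a median per cell of 195 CPM in VIM-high and 24.8 CPM in other Control cells. ESAM, an endothelial adhesion molecule, stood at 23.5, 10.7 and 1.05 CPM. The defining markers were low in all sets, though some were higher in VIM-high cells, with PECAM1 at 4.34 CPM in VIM-high, 3.97 CPM in induced and 2.94 CPM in other Control cells, CDH5 at 6.94, 2.63 and 0.325 CPM, KDR at 1.63 CPM in VIM-high, 1.92 CPM in induced and no count in other Control cells, and CLDN5 at 0.108, 0.212 and 0.464 CPM. The list summed to 357 CPM in VIM-high, 80.1 CPM in induced and 79.4 CPM in other Control cells. Of fibroblast markers 5 of 8 were measured and 3 were higher, the matrix genes COL1A1, COL3A1 and LUM, while DCN was at 2.49 CPM and PDGFRA at 1.95 CPM in VIM-high cells. With no filter 5 of the 8 were higher. Of all 35518 genes with a count, 1023 were higher and 741 lower with no filter. Schwann cell precursor markers had ERBB3 higher, at 10.7 CPM in VIM-high, 1.74 CPM in induced and 4.70 CPM in other Control cells. Immune, erythroid and adrenal cortex lists had no measured gene and summed to 6.61, 1.52 and 2.71 CPM in VIM-high and to 5.45, 1.97 and 3.10 CPM in other Control cells. The part of endothelial and fibroblast markers in the mesenchymal differences was not tested.

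Besides S100A10, LUM and EGFL7, the 15 genes with the highest ratios among those not carried by single cells included the following. STC1, the hormone stanniocalcin, stood at 67.2 CPM in VIM-high, 41.1 CPM in induced and 14.2 CPM in other Control cells. PROCR, the protein C receptor, stood at 38.1, 16.8 and 7.80 CPM and PLK2, a stress-responsive kinase, at 38.6, 68.4 and 8.77 CPM. EGLN3, an oxygen-sensing prolyl hydroxylase, stood at 33.9, 11.8 and 7.71 CPM, and its median per cell was 23.3 CPM in VIM-high cells and 0 in other Control cells. The protease PLAT stood at 53.7, 51.7 and 15.8 CPM, the lysosomal protease CTSB at 205, 172 and 63.5 CPM and the growth factor PTN at 88.2, 99.2 and 27.5 CPM. SLC32A1, the vesicular transporter of GABA, stood at 28.7, 2.53 and 7.26 CPM. SLC12A8, TNFRSF19, ST6GAL1 and MYLIP completed the set, with log2 ratios from 1.62 to 1.91.

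CHGA, given above, was among the 15 genes with the lowest ratios. C1QL1, a synaptic complement-like protein, stood at 65.2 CPM in VIM-high, 73.8 CPM in induced and 160 CPM in other Control cells, and DLL3, a Notch ligand, at 20.5, 46.7 and 44.1 CPM. SHD, an adaptor protein, stood at 157, 324 and 329 CPM, and ABAT, which breaks down GABA, at 27.3, 44.8 and 58.2 CPM. The histone genes HIST1H1B and HIST1H4C were also among the 15, with log2 ratios of -1.26 and -1.17. NT5E, the surface enzyme CD73 that is otherwise used as a mesenchymal stromal marker, was lower, at 17.6 CPM in VIM-high, 48.9 CPM in induced and 39.8 CPM in other Control cells. INSM2, DTL, PPM1L, AEN, TNNT2 and DPF1 were among them too, with log2 ratios from -1.22 to -1.09.

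Further genes had high ratios carried by few cells, and 19 such genes stood above the fifteenth gene of the upper set. EDN1, the vasoconstrictor endothelin-1, had counts in 26 of 96 VIM-high and 18 of 860 other Control cells. It stood at 69.9 CPM in VIM-high, 37.3 CPM in induced and 0.476 CPM in other Control cells, and 3 VIM-high cells held at least 50% of its counts. IGFBP3, a binder of insulin-like growth factors, stood at 176, 35.4 and 18.97 CPM, with 4 cells holding that share. CRH, the corticotropin-releasing hormone, stood at 969, 358 and 118 CPM, with 5 cells holding it. These 3 genes were named after their values were seen.

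Across the order of Control cells by VIM the marker genes moved gradually and then most in the last 10%. In the 290 cells with no VIM count and then in bins 4 to 10, which hold 10% of Control cells each or nearly so, S100A10 stood at 155, 146, 163, 197, 255, 307, 493 and 831 CPM. The mesenchymal lists without VIM summed to 8940, 8668, 9120, 9700, 10025, 10597, 12045 and 15922 CPM in the same order. CHGA was at 1311 CPM in cells with no VIM count, 684 CPM in bin 9 and 411 CPM in bin 10. Thus bin 9, just outside the VIM-high set, lay between the rest and VIM-high cells in these genes. The bins differed in depth, with medians from 64793.5 counts in cells with no VIM count to 145237 in bin 4, and bins 9 and 10 had 84644 and 83508. HRAS stayed between 102 and 116 CPM in all bins. S100A6 was at 919 CPM in cells with no VIM count and 1192 CPM in bin 10.

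**Figure D3:**
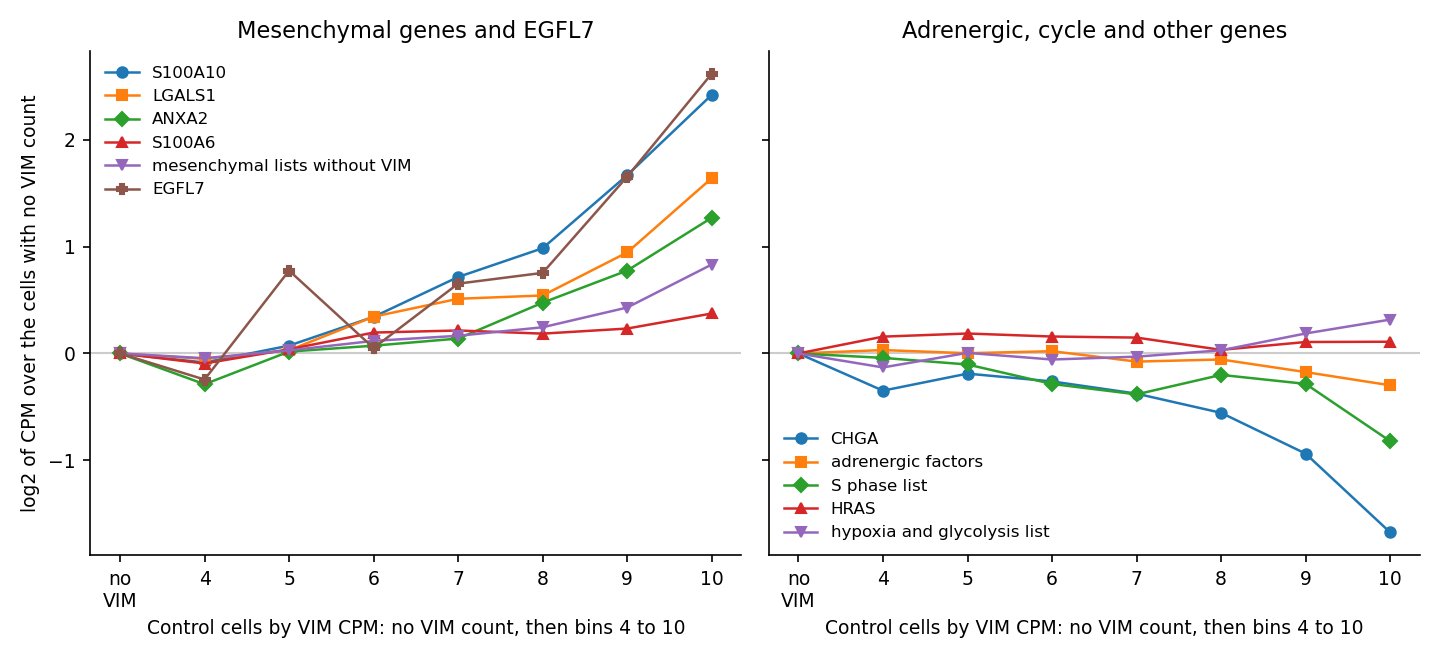
Levels across Control cells ordered by VIM, as the log2 of the summed CPM over that of the 290 cells with no VIM count, with bin 10 holding the VIM-high cells. S100A10, EGFL7, LGALS1 and ANXA2 climb toward bin 10 (left), and CHGA drops while HRAS stays level (right).

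VIM-high cells did not sit in 1 place among Control cells. The 80 VIM-high and 686 other Control cells that were deep enough were grouped without VIM into 5 clusters by the Leiden method, and all 5 held some of the 80 VIM-high cells. Naming a cluster took 3 fixed markers of a cell type among its 10 leading genes, and no cluster had them. Cluster 4 had the highest share, 20 of 47 cells (42.6%, 28.3 to 57.8), and cluster 5 the most cells, 36 of 250 (14.4%, 10.3 to 19.4). Clusters 2, 3 and 1 held 15 of 183 (8.20%), 5 of 96 (5.21%) and 4 of 190 (2.11%). The leading genes were STC1, SPAG4, LUM, EGFL7 and S100A10 in cluster 4, SCUBE1, IGFBP5 and AKR1C1 in cluster 5, mitotic genes such as CENPE, CCNB1 and PLK1 in cluster 2 and histone genes and CCNE2 in cluster 1. With the mesenchymal lists also left out of the clustering, the cluster with the most VIM-high cells again held 36 of 80 (45%). At a resolution of 1.0, 8 clusters were found and the one with the most held 28 (35%).

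The levels of some genes in VIM-high cells differed between the 2 main clusters. For NDUFA4L2, S100A10 and CRH the other cells of these clusters differed in the same direction. NDUFA4L2 was at 231 CPM in the VIM-high cells of cluster 4 and 20.1 CPM in those of cluster 5, and the other cells of these clusters stood at 113 and 2.13 CPM. S100A10 was at 1528 CPM in the VIM-high cells of cluster 4 and 560 CPM in those of cluster 5, against 1025 and 186 CPM in the other cells there. CRH was at 1983 and 204 CPM in the VIM-high cells of clusters 4 and 5, against 1082 and 104 CPM in the other cells. EDN1 had the reverse order, with 0.951 CPM in the VIM-high cells of cluster 4 and 170 CPM in those of cluster 5, against 1.44 and 0.577 CPM in the other cells. ACTA2 was at 0.951 and 70.4 CPM in the VIM-high cells of clusters 4 and 5, and IGFBP3 at 81.3 and 321 CPM. Cluster 4 VIM-high cells had a median mitochondrial percent of 16.9, against 15.7 in its other cells, and cluster 5 VIM-high cells 12.7, against 13.3. The part of this measure was not tested.

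Within clusters several of the differences were again seen, but not all. In the VIM-high cells of each of the 5 clusters S100A10, LGALS1, ANXA2 and TAGLN2 stood above, and INSM2 and CHGA below, their level in the other cells, in some clusters by less than 1.5-fold. In cluster 2, for example, S100A10 was at 442 CPM in 15 VIM-high cells and 200 CPM in 168 other cells, and CHGA at 504 and 1107 CPM. LUM was higher in 4 clusters and level in cluster 4, at 101 CPM in VIM-high and 107 CPM in other cells. EGFL7 and TNFRSF12A had the same pattern. In cluster 4 EGFL7 was at 459 CPM in VIM-high and 443 CPM in other cells, and TNFRSF12A at 77.0 and 78.5 CPM. BNIP3 was level in clusters 4 and 5, at 578 and 132 CPM in VIM-high and 574 and 133 CPM in other cells. S100A6 was lower in the VIM-high cells of clusters 1, 2 and 5, at 462, 771 and 1189 CPM against 670, 867 and 1266 CPM. In clusters 3 and 4 S100A6 was higher. FN1 was lower in the VIM-high cells of clusters 1 and 3 and higher in those of clusters 2, 4 and 5. The summed mesenchymal lists stood at 18504 CPM in VIM-high and 13204 CPM in other cells of cluster 4, and at 16342 and 10467 CPM in cluster 5. Clusters 1 and 3 held 4 and 5 VIM-high cells, so their values rest on few cells.

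**Figure D4:**
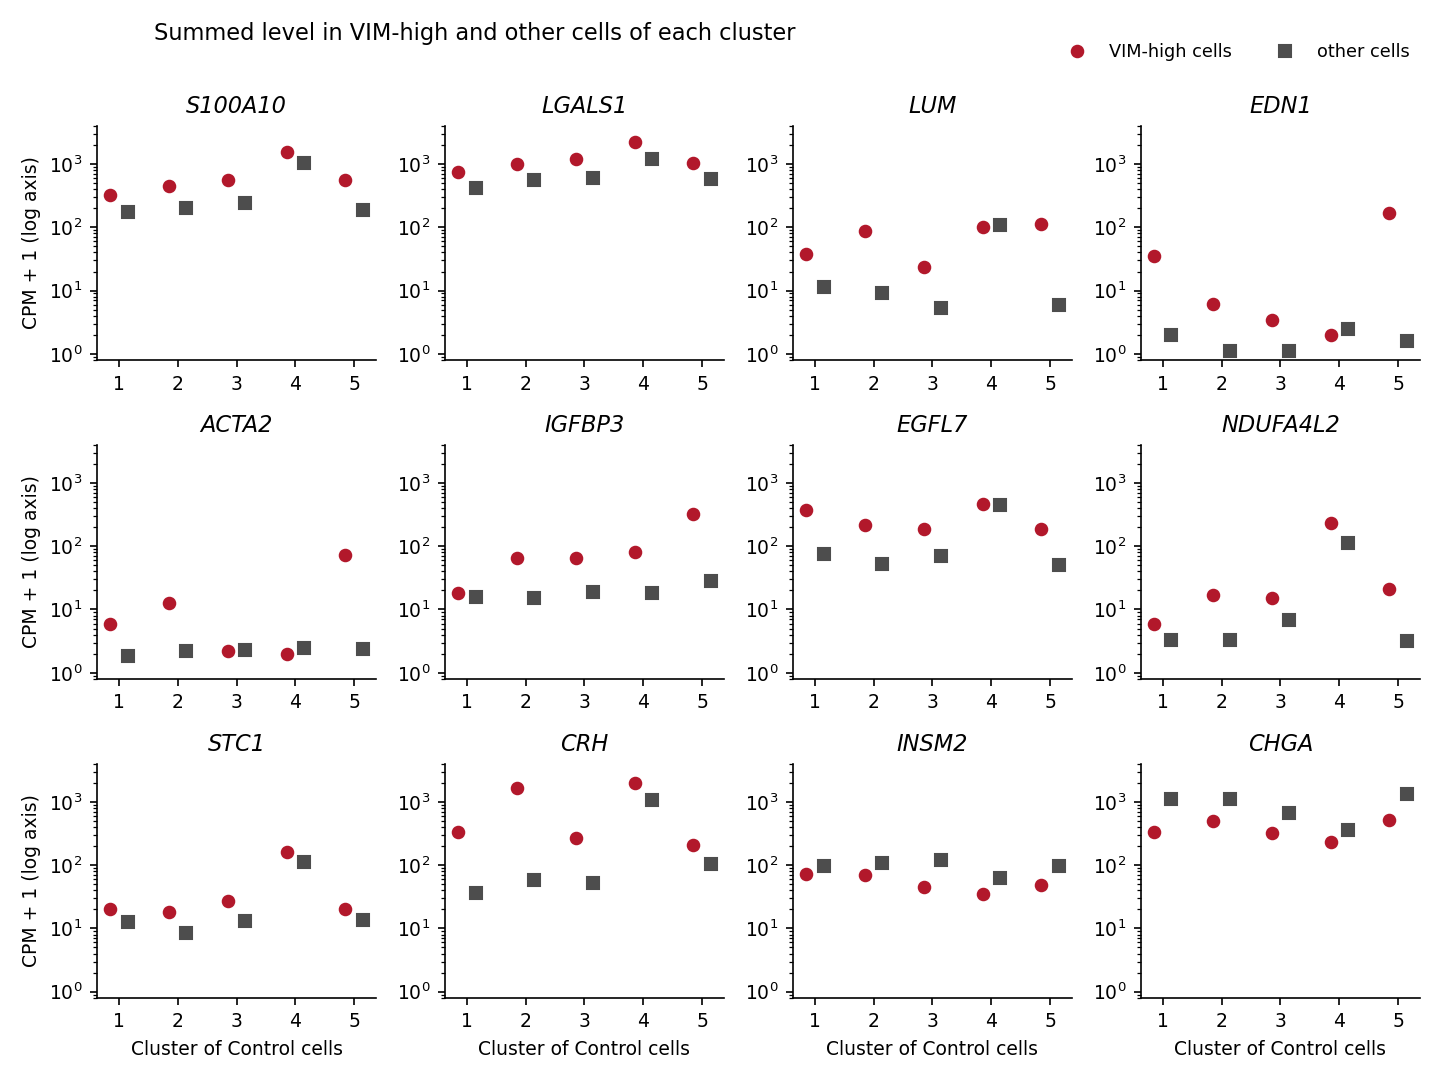
Summed level of 12 genes in VIM-high cells (circles) and other cells (squares) of 5 clusters of Control cells, in CPM + 1 on a log axis. S100A10 and LGALS1 sit above and INSM2 and CHGA below the other cells in VIM-high cells of every cluster, EDN1 and ACTA2 are high in the VIM-high cells of cluster 5, and NDUFA4L2 and STC1 are high in cluster 4.

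The same choice was made in the induced library, which shares no cells with Control: 67 cells with the highest VIM, at 3691 CPM or more, were set beside the other 599, a comparison added after seeing the data. These VIM-high induced cells had a median of 80010 counts, against 114776 in the other induced cells, and the part of depth was not tested. Of 9196 measured genes 1514 (16.5%) were higher and 942 (10.2%) lower in VIM-high induced cells. Of 41 mesenchymal surface genes 33 were higher and none lower, and of 20 adrenergic factors 14 were lower and 2 higher. CHGA stood at 46.0 CPM in VIM-high induced and 478 CPM in other induced cells, and LUM at 331 and 42.8 CPM. S100A10 was at 2875 CPM in VIM-high induced and 2013 CPM in other induced cells, a log2 ratio of 0.51, beside 1.86 in Control. HRAS stood at 167 CPM in VIM-high induced and 160 CPM in other induced cells.

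Gene by gene the same direction was common. Over all 8438 genes measured in both libraries, 1066 were higher and 893 lower in VIM-high induced cells. Of the 423 genes higher in VIM-high Control cells 380 were measured in the induced library, and 249 of these (65.5%) were higher in VIM-high induced cells too. Those 249 were 23.4% of the 1066 genes that were higher in VIM-high induced cells and measured in Control. On the lower side it was 128 of 182 (70.3%), which were 14.3% of 893. Pearson's r between both sets of log2 ratios was 0.52 across 8438 genes, which are not independent replicates, and VIM chose the cells in both libraries. Hypoxia and glycolysis genes went apart, with 4 of 17 higher and 4 lower in VIM-high induced cells and a median of 0.03, beside 0.56 in Control. NDUFA4L2 stood at 1.32 CPM in VIM-high induced and 4.98 CPM in other induced cells, and CRH at 122 and 378 CPM. MYCN was at 141 CPM in VIM-high induced and 417 CPM in other induced cells, a log2 ratio of -1.55, beside 0.42 in Control. Neuronal genes were lower in 14 of 21 cases in VIM-high induced cells and in 0 of 19 in VIM-high Control cells.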

How the data were processed

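Per the labels, 1 culture was given doxycycline and 1 was left untreated, and each gave 1 droplet library with 3' counting of molecules. Reads were processed with kallisto and bustools, per the submitters' processing notes. Their versions, the build, the annotation and any doublet removal are not given in the sources. The authors deposited counts, whole numbers per gene and cell, for 36027 genes, and the percent of mitochondrial counts per cell, at most 20.0. The deposited annotation names no barcodes and was matched in file order. Its totals differed from the column sums by at most 192 counts, and the barcode suffix fitted its sample column in 1622 of 1622 cells.

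Counts were summed over cells and scaled to CPM. Genes in several copies or overlapping genes can lose or share reads. Log2 ratios had 1 CPM added to each level, which understates differences of low genes. Genes with at least 10 CPM in either set were measured. Sums, ratios and shares have exact Poisson, conditional and Clopper-Pearson intervals at 95%, and list medians order-statistic intervals. For lists with few measured genes the range over those genes stands in place of an interval. A count of 0 allows up to 3 counts. Values per cell used 53000 counts per cell, phases scanpy 1.11.5, and clusters leidenalg 0.10.2 on 2000 variable genes, 30 components, 15 neighbours and a resolution of 0.5. No doublet caller was run. Calculations were tested on simulated data. edgeR 4.0.16 and DESeq2 1.42.0 gave scaling factors only.

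The rule names the fixed markers and RAS genes, the 15 highest and 15 lowest genes with at least 25 CPM in either set and no cell holding over 10% of the counts in the set where the gene is higher, the 2 highest and 2 lowest measured genes of each of 29 lists, and the 8 highest of induced over Control. A few genes under this rule are left out here. Other list members were named after their values were seen. The cells and lists were chosen with earlier results of these data known. Alternatives varied the choice of cells, the cells kept, scaling, pseudocount, filter, depth and clustering.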

Additional observations from a re-analysis of the deposited data

How the results depend on the processing

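The mesenchymal surface list's median stayed positive (0.57 to 0.95) and that of adrenergic factors negative (-0.49 to -0.24) under all 20 alternatives, and the matrix, S phase and hypoxia lists kept their sign (0.48 to 1.66, -0.78 to -0.23 and 0.13 to 0.87). Counts of genes at least 1.5-fold higher and lower, 423 and 234, depended on the settings. They were 700 and 563 of 9064 genes with the top 5% of cells and 244 and 68 of 8799 with the top 20%. With no filter they were 1023 and 741 of 35518, and at 50 CPM or more 110 and 62 of 3080. Genes lower numbered 96 with phases matched, 140 with 5 CPM added and 417 in cells called G1. The VIM ratio in counts that had not chosen the cells was 22.0 with the top 20%. Without cluster 5 the G2 or M share was 52.3%. Of 12 lists whose median's interval, or range for short lists, left out 0, 3 changed sign. They were the G2 and M list with phases matched (0.013), epithelial markers with no filter (-0.13) and Schwann markers in G1 cells (-0.015). The epithelial and Schwann lists had 2 measured genes each, so only a range was available. Of 69 named genes at least 1.5-fold apart, STMN4 changed sign without cluster 4 (-0.82). Counting also those nearer 0, 14 of 26 list medians and 24 of 127 genes had the other sign under some alternative. The cause was not tested. The choices by cluster and phase call were made after seeing the data. The share of VIM-high cells above the other Control 95th percentile stayed between 40.2% and 56.4%. Among single genes and other lists 2304 values stayed within their interval and 710 moved outside it. At 50 CPM no Schwann or epithelial marker list could be given. A gene with a count of 0 in VIM-high cells could still have a level of up to about 0.325 CPM at this depth. No paired analysis was possible because each group was 1 library.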
